A study of Mus musculus with 6 samples.

Results

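The genes described are 35 lysosomal genes, measured as messenger RNA in M2 macrophages (Mφs) in which a tRNA fragment had been targeted. They encode soluble hydrolases of the lysosomal lumen with their protein cofactor, proteins of the lysosomal membrane, and the transcription factors Tfeb and Tfe3. They were selected by gene symbol from a list that was drawn up with earlier results of these data known, and all 35 were found among the 41549 genes of the table. Bone marrow cells of wild type mice were differentiated into macrophages with macrophage colony-stimulating factor, transfected with an antisense oligonucleotide and then polarised by IL-4 with IL-13 to M2, the anti-inflammatory state. The antisense was directed at 5′tRF-Glu(CTC), a fragment that begins at the 5′ end of glutamate tRNA (αGlu), or was a control (Ctr), and the comparison addressed how blocking the fragment bears on M2 transcripts. Each group had 3 libraries of bulk RNA, which the study describes as independent experiments. Both groups were transfected and both were polarised, so no library came from untransfected or unpolarised cells. The libraries hold polyadenylated RNA, and so they do not measure the fragment itself or how far it was blocked.

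Lysosomes are acidic organelles in which hydrolases break down lipids, glycans, glycogen and proteins that arrive by endocytosis, phagocytosis or autophagy, and macrophages are rich in them because they ingest cells and lipoproteins. Most soluble hydrolases are tagged with mannose 6-phosphate in the Golgi and carried to the lysosome by receptors, while a vacuolar ATPase keeps the lumen acidic. TFEB and its relative TFE3 enter the nucleus when mTORC1 activity at the lysosomal surface drops, and bind a short palindrome, the CLEAR element, in the promoters of many lysosomal genes.

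The sequences below show what the αGlu antisense was directed against, since the antisense given is the difference that the labels name between the groups. The first line gives the 21 bases listed as the target of the antisense and not the whole fragment, which the paper describes as longer. Capitals in this target mark the bases that pair with the antisense, which are bases 2 to 21, and the antisense has 20 bases.
5′tRF-Glu(CTC): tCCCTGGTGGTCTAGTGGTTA
αGlu antisense: taaccactagaccaccaggg

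The palindrome TCACGTGA, the core of the CLEAR element, and the shorter E-box CACGTG that it contains were searched in RefSeq promoters of the GRCm38.p6 assembly, from 250 bases before to 50 bases after each transcription start. Both motifs read the same on either strand. Some genes, such as Ctsa and Lgmn, had several promoters listed, and a match in any of them counted for the gene. A promoter was listed for 32 of the 35 genes, and Npc1, Galns and Asah1 had none in the table. TCACGTGA was present in 3 of the 32, which is 9.38%, against 1.12% of 27025 genes. These were Ctsa, Gla and Mcoln1. CACGTG was present in 10 of the 32, or 31.2%, against 8.09% of all genes, and the other 7 were Arsa, Gaa, Glb1, Lamp1, Lgmn, Naglu and Sgsh. Stretches of 4 promoters are printed, from 110 bases before the start to 20 bases from it on, to set genes with repeated motifs beside the gene with the lowest αGlu level relative to Ctr, Lipa. Capitals mark TCACGTGA where it is complete and CACGTG elsewhere.
Ctsa, chr2:164833663-164833792, plus strand: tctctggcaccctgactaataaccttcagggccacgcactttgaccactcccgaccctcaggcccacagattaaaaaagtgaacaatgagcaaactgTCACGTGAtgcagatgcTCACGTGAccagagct
Mcoln1, chr8:3500409-3500538, plus strand: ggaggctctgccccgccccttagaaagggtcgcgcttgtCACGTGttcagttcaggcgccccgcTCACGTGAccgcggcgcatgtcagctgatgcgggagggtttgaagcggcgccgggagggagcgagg
Lamp1, chr8:13159051-13159180, plus strand: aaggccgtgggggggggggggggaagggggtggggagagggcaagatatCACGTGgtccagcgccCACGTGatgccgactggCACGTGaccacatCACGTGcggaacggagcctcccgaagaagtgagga
Lipa, chr19:34527455-34527584, minus strand: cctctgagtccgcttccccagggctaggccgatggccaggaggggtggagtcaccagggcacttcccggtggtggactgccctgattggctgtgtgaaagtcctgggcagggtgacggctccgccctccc
The Ctsa promoter printed here held 2 copies of TCACGTGA, with their E-boxes beginning at position -12 and at position 6, where position 1 is the first transcribed base. The other promoter listed for Ctsa held neither motif. The Lamp1 promoter held 4 E-boxes, beginning between -61 and -15. Neither motif is in the Lipa stretch. A match is a string of letters and not a measured binding site, and its absence says nothing about the factor.

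The 6 libraries held from 17912831 to 30386653 reads over exons, and every lysosomal gene had at least 379 reads in every library, so all 35 passed the filter on low counts, which left 11933 genes to test. Every pair of libraries differed by more than sampling noise. The library αGlu 1 stood apart from the other libraries of its group. On the first principal component, which held 76.7% of the variance over all genes tested, αGlu 1 scored -22.2, the other αGlu libraries 74.4 and 74.7, and the Ctr libraries between -50.5 and -35.8. Across genes, log2 CPM of αGlu 1 correlated with the Ctr libraries at 0.966 to 0.982 and with αGlu 2 and αGlu 3 at 0.929, so that by its RNA this library was closer to Ctr than to the group of its label. No value in these data measures the block of the fragment, and whether αGlu 1 was labelled and transfected as the other αGlu libraries were was not tested. Every αGlu mean and every fold change over 6 libraries includes it. Counts and the fold changes of the lysosomal genes are therefore given with and without αGlu 1, and without it the αGlu group has 2 libraries. The labels name no batch or sequencing date, so no value within a batch could be given.

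The cells carried the macrophage label in their RNA. All 10 macrophage markers, among them Adgre1, Csf1r and Spi1, had a mean above 1 CPM, the reads of a gene per 1000000 reads of the library after scaling by trimmed mean of M-values (TMM) factors. Their summed level was 12466 to 13979 CPM in Ctr and 13237 to 19651 CPM in αGlu. Lyz2 led this sum, at a mean of 7762 CPM. It had 5694 to 7229 CPM in Ctr, and 6512, 9189 and 11065 CPM in αGlu 1, 2 and 3. Of 10 genes of the IL-4/IL-13 response, 8 had a mean above 1 CPM, and their sum was 2895 to 4582 CPM in Ctr and 4081 to 7008 CPM in αGlu. Chil3 led that sum, at a mean of 2479 CPM. A sum led by a single gene does not show how each member of the list differed. The markers of fibroblasts summed to 2.09 to 8.09 CPM in Ctr and 2.14 to 3.27 CPM in αGlu. Those of lymphocytes summed to 17.9 to 30.9 CPM and 18.4 to 21.4 CPM, with Cd3g at 0 in all libraries. Of these 8 lymphocyte genes only 1 had a mean above 1 CPM, Cd4 at 22.4 CPM. For 4 further lists the sums did not overlap between the groups. Dendritic cell genes summed to 20.4 to 24.8 CPM in Ctr and 6.64 to 16.1 CPM in αGlu, with Xcr1 at 0 in all libraries. Only 1 of these 8 genes had a mean above 1 CPM, Batf3 at 14.4 CPM. Mast cell and basophil genes summed to 3.85 to 5.06 CPM in Ctr and 5.13 to 6.65 CPM in αGlu, with Tpsb2 at 0. A list of 10 neutrophil genes summed to 108 to 160 CPM in Ctr and 187 to 609 CPM in αGlu, of which Csf3r made up most, while Ly6g was at 0 in all 6 libraries. A list of 8 osteoclast genes summed to 2640 to 2761 CPM in Ctr and 735 to 2486 CPM in αGlu, with 2486 CPM in αGlu 1. This list was led by Atp6v0d2, a subunit of the vacuolar ATPase, and its Calcr was at 0. The part that any of these lists has in the lysosomal results was not tested, and in bulk RNA fewer cells of a type and less RNA per cell cannot be told apart.

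Levels of different genes were compared in TPM, which corrects for exon length and sums to 1000000 in every library. The 35 genes together took 4.62%, 4.39% and 4.32% of the transcripts in Ctr 1, 2 and 3, and 4.498%, 3.10% and 2.95% in αGlu 1, 2 and 3. The share in αGlu 1 lay among those of Ctr, and the shares in αGlu 2 and αGlu 3 lay below all of them. Psap, the precursor of the saposins that present sphingolipids to their hydrolases, alone accounted for 44.2% to 58.6% of this share. Without Psap the other 34 genes took 1.91% to 2.10% in Ctr and 2.17%, 1.58% and 1.65% in αGlu 1, 2 and 3, so that αGlu 1 was the highest library and αGlu 2 and αGlu 3 were the lowest.

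**Figure D1:**
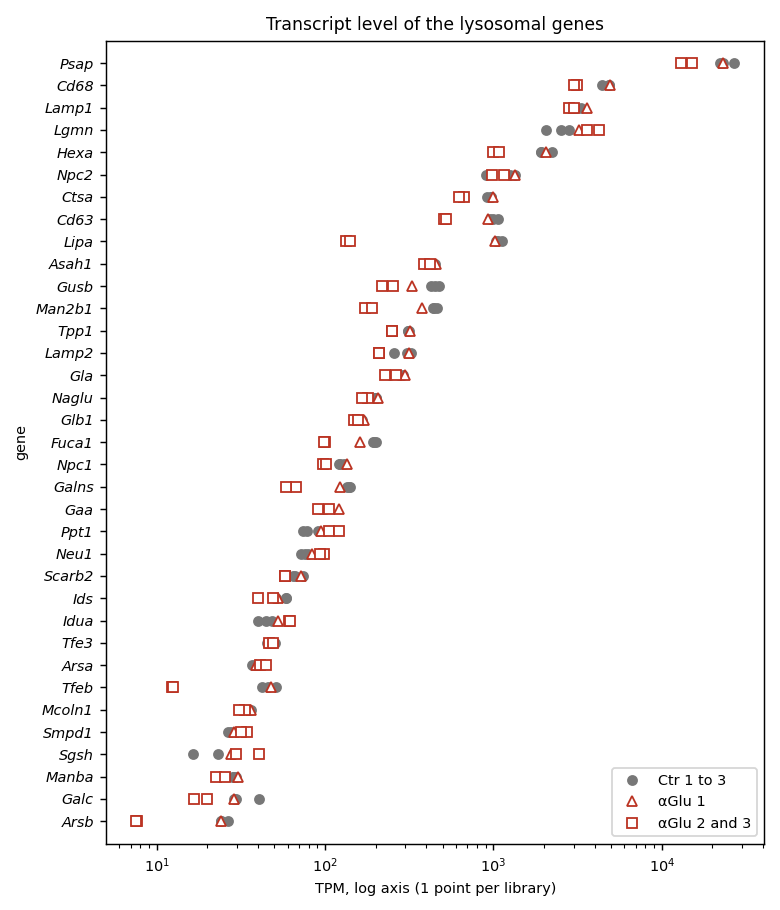
TPM of the 35 lysosomal genes on a log axis, with 1 point per library: filled circles for Ctr 1 to 3, a triangle for αGlu 1 and squares for αGlu 2 and 3. Mean levels run from 19 TPM for Arsb to 20623 TPM for Psap, and for Lipa and Tfeb the squares lie far to the left of the other 4 points.

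The levels spanned 3 orders of magnitude, as the plot of TPM by library shows. The mean level over the 6 libraries was 20623 TPM for Psap, 4208 TPM for Cd68, 3149 TPM for Lamp1, 3079 TPM for Lgmn and 1700 TPM for Hexa. The middle gene had 158 TPM. The lowest means were 19 TPM for Arsb, 27.3 TPM for Galc and 27.5 TPM for Manba. Among the leading genes the order was not fixed between groups: in Ctr, Cd68 (4732 ± 261 TPM, SD, n = 3) was followed by Lamp1 (3166 ± 145 TPM) and Lgmn (2466 ± 373 TPM). In αGlu, Lgmn (3692 ± 493 TPM) and Cd68 (3685 ± 1065 TPM) were closer to each other than their spread between libraries. Lamp1 (3132 ± 401 TPM) differed from Cd68 by less than the SD of Cd68.

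Relative to Ctr, most lysosomal genes had lower transcript levels in αGlu, and the size of the difference came from αGlu 2 and αGlu 3. The log2 fold change of αGlu over Ctr was below 0 for 27 of the 35 genes, against 48% of all 11933 genes tested. The median log2 fold change was -0.21 over the lysosomal genes and 0.02 over all genes. The median difference from the Ctr mean, in log2 CPM, was 0.01 in αGlu 1, -0.40 in αGlu 2 and -0.38 in αGlu 3. αGlu 1 lay within the range of the Ctr libraries for 19 of the 35 genes, above it for 7 and below it for 9, and over all genes it lay within that range for 42.6%.

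With edgeR's quasi-likelihood test on all 6 libraries and Benjamini-Hochberg adjustment over all genes, 0 of the 35 genes passed an adjusted p under 0.1 with an absolute log2 fold change above 1. The background was 0 of 11933 genes, or 0%. The smallest adjusted p among the lysosomal genes was 0.156, for Gusb. At an unadjusted p under 0.05, 7 of them were lower in αGlu, which is 20% against 11.9% of all genes, and 3 were higher, which is 8.57% against 12.7%. By the same thresholds limma-voom called 0 of the 35 genes (background 0%), the edgeR likelihood-ratio test 0 (background 7.53%) and DESeq2 0 (background 8.13%). Their counts at an unadjusted p under 0.05, in either direction, were 11 of 35 (background 26%), 8 of 35 (background 22%) and 12 of 35 (background 25.7%). With no limit on the fold change, DESeq2 called 5 of the 35, or 14.3%, against 15.8% of all genes. The 4 lower in αGlu were Man2b1, Gusb, Galns and Fuca1, with a background of 8.1%, and the 1 higher was Lgmn, with a background of 7.71%.

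All 3 αGlu libraries lay below all 3 Ctr libraries for 9 of the 35 genes, or 25.7%, against 15.9% of all genes. They lay above for 3, or 8.57%, against 14.2%. The 9 lower genes were Lipa, Arsb, Man2b1, Gusb, Galns, Fuca1, Cd63, Galc and Ids, all of them hydrolases except Cd63, and the 3 higher genes were Lgmn, Idua and Neu1. When αGlu 1 was left out, 25 of the 35 genes lay below and 5 above, with backgrounds of 31.9% and 34.1%. The fit without αGlu 1 called 9 of the 35 genes, all lower, against 10.5% of all genes called as lower. These were Lipa, Arsb, Tfeb, Man2b1, Gusb, Galns, Fuca1, Cd63 and Hexa. With no limit on the fold change the same fit passed 21 genes as lower, or 60%, against a background of 25.6%, and 4 as higher, or 11.4%, against a background of 23.5%. In either direction these were 71.4% of the lysosomal genes and 49.1% of all genes.

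**Figure D2:**
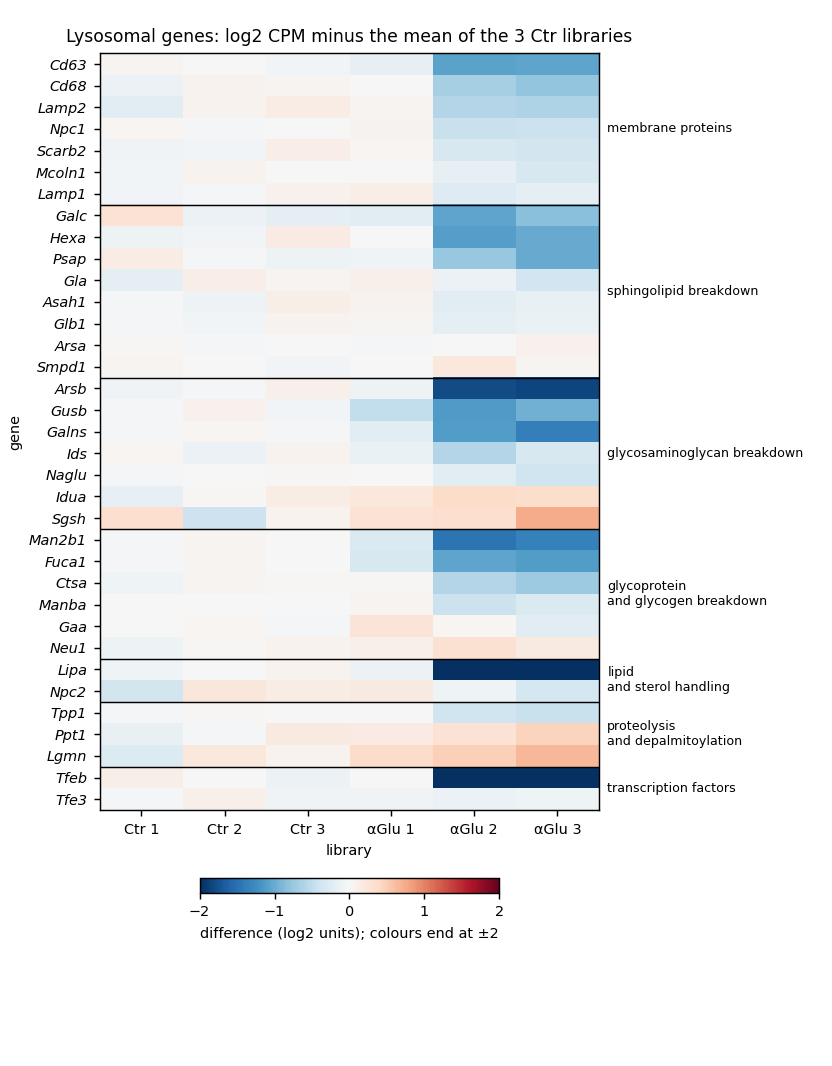
Difference of each library from the mean of the 3 Ctr libraries in log2 CPM, for the 35 lysosomal genes (rows, grouped by role) in the 6 libraries (columns), with blue below and red above the Ctr mean and colours ending at ±2. The αGlu 1 column is pale, with a median of 0.01, and the αGlu 2 and αGlu 3 columns are mostly blue, with medians of -0.40 and -0.38.

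**Figure D3:**
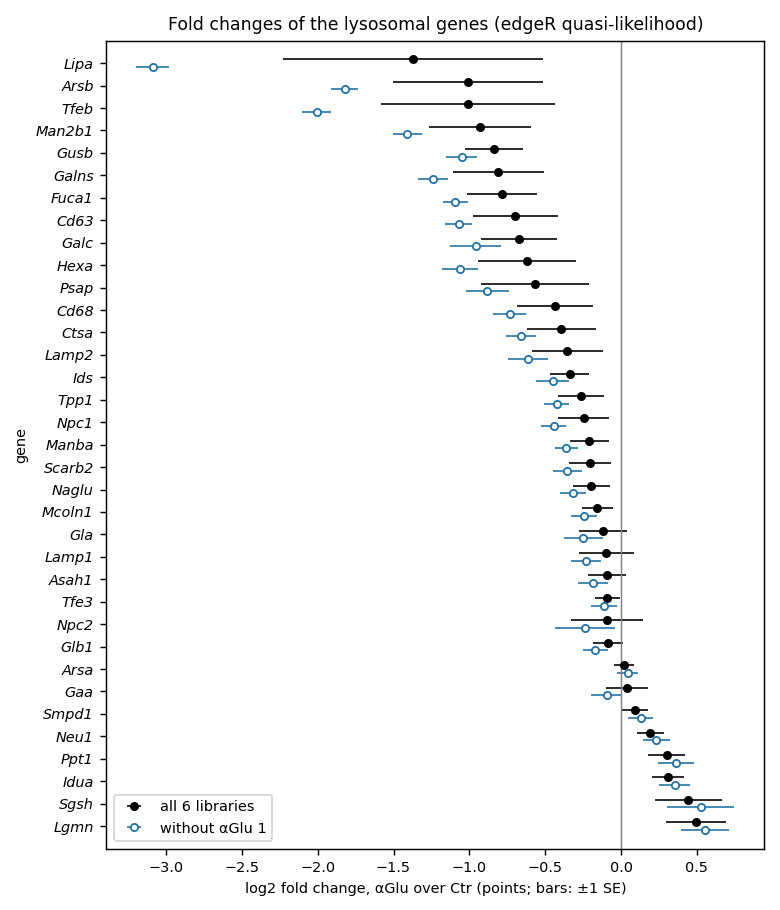
Log2 fold change of αGlu over Ctr with its SE for each lysosomal gene in the edgeR quasi-likelihood fit, with all 6 libraries (filled points) and without αGlu 1 (open points). Lipa lies at -1.37 ± 0.86 with all libraries and at -3.09 ± 0.11 without αGlu 1, and the genes at the lower end, down to Lgmn at 0.49 ± 0.20, lie above 0.

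The heat map by library and the plot of fold changes show the same split. Where αGlu 1 resembled Ctr, the SE of the fold change with all 6 libraries was large, as for Lipa, Tfeb and Arsb, and it was smaller for genes such as Tfe3 in which all libraries lay close together.

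Lipid and sterol handling held the largest difference. Lipa (ENSMUSG00000024781, chr19:34492318-34527474, minus strand, GRCm38) encodes lysosomal acid lipase, which frees cholesterol and fatty acids from cholesteryl esters and triglycerides. Its level was 2284, 2427 and 2540 CPM in Ctr 1, 2 and 3, and 2228, 281 and 289 CPM in αGlu 1, 2 and 3. αGlu 2 and αGlu 3 held 0.116 and 0.12 of the Ctr mean, while αGlu 1 lay just under the lowest Ctr library, so that the groups did not overlap although 1 αGlu library was close to Ctr. The log2 fold change was -1.37 ± 0.86 (SE) with an edgeR adjusted p of 0.336, and without αGlu 1 it was -3.09 ± 0.11 with an adjusted p of 1.84e-05. Npc2, the small luminal protein that hands free cholesterol to the membrane, had 2110 ± 447 CPM in Ctr and 1981 ± 362 CPM in αGlu (SD, n = 3), with overlap. Its log2 fold change was -0.09 ± 0.24, and -0.24 ± 0.20 without αGlu 1. It was above 0 when Ctr 2 or αGlu 3 was left out, at 0.02 and 0.03.

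Glycosaminoglycan breakdown needs a chain of enzymes that remove sugars and sulphates from the ends of heparan, dermatan and keratan sulphate. Of its 7 genes, 4 were lower without overlap, 1 was higher without overlap and 2 overlapped. Arsb (ENSMUSG00000042082, chr13:93771630-93943016, plus strand) encodes the sulphatase of dermatan sulphate. It had 47.5, 49 and 53.6 CPM in Ctr 1, 2 and 3, and 46.6, 14.5 and 13.9 CPM in αGlu 1, 2 and 3. As for Lipa, αGlu 1 lay just below Ctr and the other αGlu libraries far below. Its log2 fold change was -1.01 ± 0.49 (edgeR adjusted p 0.25), and -1.82 ± 0.09 without αGlu 1 (4.6e-05).

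Gusb (ENSMUSG00000025534, chr5:129989011-130003049, minus strand), the β-glucuronidase, was the gene for which αGlu 1 was furthest below Ctr. It had 667, 722 and 651 CPM in Ctr 1, 2 and 3, and 485, 309 and 349 CPM in αGlu 1, 2 and 3. All αGlu libraries were well below all Ctr libraries, and αGlu 1 held 0.713 of the Ctr mean, the lowest such ratio of the 35 genes in that library. The log2 fold change was -0.84 ± 0.19 (edgeR adjusted p 0.156, DESeq2 adjusted p 0.00265), and -1.05 ± 0.10 without αGlu 1 (edgeR adjusted p 0.000605). Galns (ENSMUSG00000015027, chr8:122578242-122611463, minus strand), a sulphatase of keratan and chondroitin sulphate, had 119, 125 and 119 CPM in Ctr 1, 2 and 3, and 104, 55.9 and 47.1 CPM in αGlu 1, 2 and 3. Every αGlu library lay below Ctr, with αGlu 1 the nearest to it. Its log2 fold change was -0.81 ± 0.30 (edgeR adjusted p 0.182), and -1.24 ± 0.10 without αGlu 1 (0.000286).

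The other genes of this chain differed less, and not all in the same direction. Ids (ENSMUSG00000035847, chrX:70343069-70365084, minus strand), the iduronate sulphatase, had 97.5, 87.6 and 99.6 CPM in Ctr 1, 2 and 3, and 86.1, 63.5 and 75.9 CPM in αGlu 1, 2 and 3. The αGlu libraries were lower without overlap, at a log2 fold change of -0.34 ± 0.13 (edgeR adjusted p 0.189), and of -0.45 ± 0.11 without αGlu 1 (0.019). Idua (ENSMUSG00000033540, chr5:108660331-108684557, plus strand), the iduronidase that acts right after the Ids sulphatase, had 54.8, 62.6 and 68.2 CPM in Ctr 1, 2 and 3, and 71.1, 79.9 and 78.7 CPM in αGlu 1, 2 and 3. Here every αGlu library was higher than every Ctr library, at a log2 fold change of 0.31 ± 0.10 (edgeR adjusted p 0.172), and of 0.35 ± 0.10 without αGlu 1 (0.0368). Naglu, the N-acetylglucosaminidase of heparan sulphate, had 173, 177 and 178 CPM in Ctr 1, 2 and 3, and 177, 150 and 133 CPM in αGlu 1, 2 and 3, with αGlu 1 inside the Ctr range. Its log2 fold change was -0.20 ± 0.12, and -0.32 ± 0.09 without αGlu 1 (edgeR adjusted p 0.0286). Sgsh, the sulphamidase of the same pathway, had 33 ± 8.26 CPM in Ctr and 44.8 ± 8.16 CPM in αGlu (SD, n = 3) with overlap. The log2 fold change was 0.44 ± 0.22 over all libraries and 0.52 ± 0.22 without αGlu 1 (edgeR adjusted p 0.109).

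Glycoprotein and glycogen breakdown held 6 genes, of which 2 were lower without overlap. Man2b1 (ENSMUSG00000005142, chr8:85083270-85098282, plus strand) encodes the lysosomal α-mannosidase, which trims mannose from N-glycans. It had 1151, 1240 and 1176 CPM in Ctr 1, 2 and 3, and 974, 431 and 466 CPM in αGlu 1, 2 and 3. αGlu 1 lay between Ctr and the other αGlu libraries, with a log2 fold change of -0.93 ± 0.34 over all (edgeR adjusted p 0.18, DESeq2 adjusted p 0.0611) and -1.41 ± 0.10 without αGlu 1 (edgeR adjusted p 0.00016). Fuca1 (ENSMUSG00000028673, chr4:135920735-135940311, plus strand), the α-fucosidase, had 207, 220 and 211 CPM in Ctr 1, 2 and 3, and 171, 102 and 98 CPM in αGlu 1, 2 and 3. The same order was seen, with a log2 fold change of -0.78 ± 0.23 (edgeR adjusted p 0.16, DESeq2 adjusted p 0.0308) and -1.09 ± 0.08 without αGlu 1 (edgeR adjusted p 0.000215).

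Ctsa, Neu1 and Glb1 encode proteins of a shared lysosomal complex, in which the Ctsa product, protective protein, stabilises the sialidase and the β-galactosidase. Ctsa had 1409, 1540 and 1521 CPM in Ctr 1, 2 and 3, and 1514, 989 and 901 CPM in αGlu 1, 2 and 3. Only αGlu 2 and αGlu 3 lay below Ctr, at a log2 fold change of -0.39 ± 0.23 over all libraries and -0.66 ± 0.10 without αGlu 1 (edgeR adjusted p 0.311 and 0.00319). Neu1 (ENSMUSG00000007038, chr17:34931253-34935953, plus strand), the sialidase, had 87.7, 94.9 and 98.6 CPM in Ctr 1, 2 and 3, and 100, 115 and 106 CPM in αGlu 1, 2 and 3. It was higher in αGlu without overlap, by a log2 fold change of 0.19 ± 0.09 (edgeR adjusted p 0.234), and 0.23 ± 0.09 without αGlu 1 (0.079). Glb1, the β-galactosidase, had 158 ± 6.74 CPM in Ctr and 149 ± 13.9 CPM in αGlu (SD, n = 3), with overlap and a log2 fold change of -0.09 ± 0.10. The log2 fold changes of the 3 genes thus had different signs, and the difference between the genes was not tested.

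Manba, the β-mannosidase that follows Man2b1 in the pathway, had 66.7, 66.1 and 66 CPM in Ctr 1, 2 and 3, and 68.7, 49.2 and 54.3 CPM in αGlu 1, 2 and 3. αGlu 1 was the highest library and the other αGlu libraries were the lowest, at a log2 fold change of -0.21 ± 0.13, and of -0.36 ± 0.07 without αGlu 1 (edgeR adjusted p 0.0107). Gaa, the α-glucosidase that degrades glycogen, had 155 ± 4.17 CPM in Ctr and 159 ± 27 CPM in αGlu (SD, n = 3), with overlap. For Gaa the log2 fold change was 0.04 ± 0.14 over all libraries and -0.10 ± 0.10 without αGlu 1.

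Sphingolipid breakdown held 8 genes, 1 of them lower without overlap. Psap had 24135, 21281 and 20321 CPM in Ctr 1, 2 and 3, and 20549, 12974 and 10884 CPM in αGlu 1, 2 and 3. αGlu 1 lay inside the Ctr range and the other αGlu libraries below it, with a log2 fold change of -0.57 ± 0.35 over all libraries and -0.88 ± 0.14 without αGlu 1 (edgeR adjusted p 0.338 and 0.00418). Hexa encodes the α subunit of β-hexosaminidase A, which degrades the ganglioside GM2. It had 1243, 1277 and 1487 CPM in Ctr 1, 2 and 3, and 1325, 624 and 660 CPM in αGlu 1, 2 and 3. The groups overlapped through αGlu 1, and the log2 fold change of -0.62 ± 0.32 was -1.06 ± 0.12 without it (edgeR adjusted p 0.272 and 0.000901). Galc (ENSMUSG00000021003, chr12:98202294-98259459, minus strand), the galactosylceramidase, had 197, 147 and 142 CPM in Ctr 1, 2 and 3, and 138, 77.3 and 90.2 CPM in αGlu 1, 2 and 3. It was lower in αGlu without overlap, although Ctr 1 was well above the other Ctr libraries, at a log2 fold change of -0.67 ± 0.25 (edgeR adjusted p 0.184), and of -0.96 ± 0.17 without αGlu 1 (0.00571).

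The other 5 genes of sphingolipid breakdown showed small differences, with overlap between the groups in each. Their log2 fold changes were -0.12 ± 0.16 for Gla, the α-galactosidase A, -0.09 ± 0.13 for Asah1, the acid ceramidase, and -0.09 ± 0.10 for Glb1. Arsa, the sulphatase of sulphatide, lay at 0.02 ± 0.07. Smpd1, the acid sphingomyelinase, lay at 0.09 ± 0.08. Levels were 293 ± 31 and 269 ± 44.4 CPM for Gla, 476 ± 34.6 and 446 ± 46 CPM for Asah1, 47 ± 1.17 and 47.7 ± 2.02 CPM for Arsa, and 30.9 ± 1.33 and 32.9 ± 2.59 CPM for Smpd1, in Ctr and αGlu (SD, n = 3). Without αGlu 1, the log2 fold changes ran from -0.25 ± 0.13 for Gla to 0.13 ± 0.08 for Smpd1, and the edgeR adjusted p of these 5 genes was at least 0.146.

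Proteolysis and depalmitoylation held 3 genes, of which 2 had a log2 fold change above 0 and 1 below 0. Most proteases of the lysosome are not among them, and the cathepsins and cystatins listed below had a median of -0.25. Lgmn (ENSMUSG00000021190, chr12:102394084-102439813, minus strand) encodes legumain, a protease that cuts after asparagine and matures other lysosomal enzymes. It had 1557, 2181 and 1971 CPM in Ctr 1, 2 and 3, and 2427, 2622 and 2982 CPM in αGlu 1, 2 and 3. Every αGlu library, αGlu 1 included, was above every Ctr library, and this was the highest log2 fold change of the 35 genes, at 0.49 ± 0.20 (edgeR adjusted p 0.197, DESeq2 adjusted p 0.0587). Without αGlu 1 it was 0.55 ± 0.16 (edgeR adjusted p 0.035). Ppt1, the thioesterase that removes palmitate from proteins, had 88.8, 97 and 112 CPM in Ctr 1, 2 and 3, and 111, 121 and 135 CPM in αGlu 1, 2 and 3. αGlu 1 lay just inside the Ctr range, and the log2 fold change was 0.30 ± 0.12, and 0.36 ± 0.12 without αGlu 1 (edgeR adjusted p 0.0542). Tpp1, which removes tripeptides from the ends of proteins, had 519, 544 and 535 CPM in Ctr 1, 2 and 3, and 533, 405 and 392 CPM in αGlu 1, 2 and 3. Unlike the other proteins of this role it was lower in αGlu 2 and αGlu 3, at a log2 fold change of -0.27 ± 0.15, and of -0.42 ± 0.08 without αGlu 1 (edgeR adjusted p 0.00886).

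**Figure D4:**
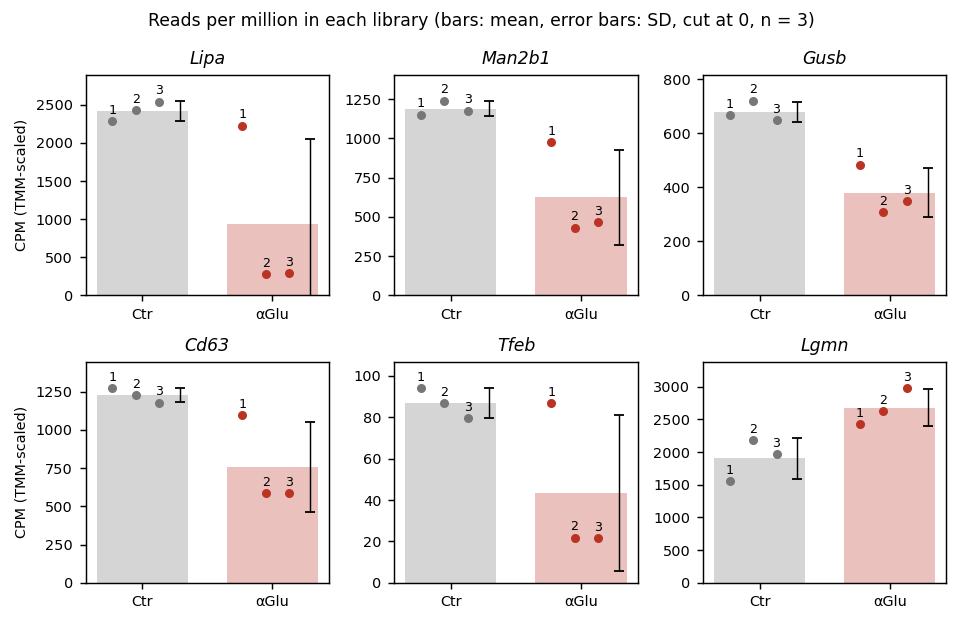
CPM of 6 lysosomal genes in each library, with the bar at the mean and the error bar at 1 SD (n = 3, cut at 0), and points numbered by replicate. For Lipa and Tfeb αGlu 1 (2228 and 86.7 CPM) sits just under and inside the Ctr points, for Man2b1, Gusb and Cd63 it sits below all Ctr points, and for Lgmn all αGlu points sit above Ctr.

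All 7 membrane proteins had a log2 fold change below 0, and 1 of them was lower without overlap. Cd63 (ENSMUSG00000025351, chr10:128900989-128912822, plus strand), a tetraspanin of late endosomes and lysosomes, had 1273, 1230 and 1179 CPM in Ctr 1, 2 and 3, and 1099, 585 and 588 CPM in αGlu 1, 2 and 3. αGlu 1 was the nearest to Ctr, as the plot of CPM by library shows, with a log2 fold change of -0.70 ± 0.28 (edgeR adjusted p 0.199) and -1.07 ± 0.09 without αGlu 1 (0.000346). Cd68, the glycoprotein used as a macrophage marker and therefore also in the marker list above, had 1809, 2063 and 2049 CPM in Ctr 1, 2 and 3, and 1990, 1237 and 1144 CPM in αGlu 1, 2 and 3. αGlu 1 lay within Ctr, and the log2 fold change of -0.44 ± 0.25 was -0.73 ± 0.11 without it (edgeR adjusted p 0.304 and 0.00289).

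Lamp1 and Lamp2 encode the main glycoproteins that coat the inner face of the lysosomal membrane. Lamp1 had 2709, 2740 and 2978 CPM in Ctr 1, 2 and 3, and 3085, 2338 and 2457 CPM in αGlu 1, 2 and 3. αGlu 1 was the highest of the 6 libraries, and the log2 fold change was -0.10 ± 0.18 over all libraries and -0.23 ± 0.10 without αGlu 1 (edgeR adjusted p 0.75 and 0.109). Lamp2 had 800, 978 and 1032 CPM in Ctr 1, 2 and 3, and 972, 623 and 604 CPM in αGlu 1, 2 and 3. αGlu 1 lay within Ctr and the other αGlu libraries below it, at a log2 fold change of -0.35 ± 0.23 over all libraries and -0.61 ± 0.13 without αGlu 1 (edgeR adjusted p 0.355 and 0.012).

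The remaining membrane proteins are transporters and receptors. Npc1, which exports the cholesterol that Npc2 delivers, had 479, 460 and 465 CPM in Ctr 1, 2 and 3, and 493, 342 and 349 CPM in αGlu 1, 2 and 3. Scarb2, the receptor that carries glucocerebrosidase to the lysosome, had 135, 137 and 156 CPM in Ctr 1, 2 and 3, and 147, 114 and 110 CPM in αGlu 1, 2 and 3. For both genes αGlu 2 and αGlu 3 were the lowest libraries and αGlu 1 was not, and the log2 fold changes were -0.25 ± 0.17 and -0.21 ± 0.14. Without αGlu 1 they were -0.44 ± 0.08 and -0.35 ± 0.10 (edgeR adjusted p 0.00693 and 0.0278). Mcoln1, the calcium-permeable channel through which lysosomes signal to TFEB, had 84.5, 92.3 and 87.8 CPM in Ctr 1, 2 and 3, and 88.3, 78.5 and 70.9 CPM in αGlu 1, 2 and 3. αGlu 1 lay inside the Ctr range and the other αGlu libraries below it. Its log2 fold change was -0.16 ± 0.10, and -0.24 ± 0.08 without αGlu 1 (edgeR adjusted p 0.0621).

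The related transcription factors differed in their values. Tfeb (ENSMUSG00000023990, chr17:47737030-47792419, plus strand) had 94.2, 86.8 and 79.6 CPM in Ctr 1, 2 and 3, and 86.7, 21.8 and 21.6 CPM in αGlu 1, 2 and 3. αGlu 1 lay in the middle of Ctr and the other αGlu libraries far below. For Tfeb the log2 fold change was -1.01 ± 0.58 (edgeR adjusted p 0.302), and -2.01 ± 0.10 without αGlu 1 (4.64e-05). Tfe3 had 144, 156 and 139 CPM in Ctr 1, 2 and 3, and 140, 134 and 138 CPM in αGlu 1, 2 and 3. All libraries lay close together, with a log2 fold change of -0.09 ± 0.08 over all libraries and -0.11 ± 0.09 without αGlu 1 (edgeR adjusted p 0.488 and 0.347). The difference between both genes was not tested. These are transcript levels, and the share of TFEB protein in the nucleus was not measured.

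The motif search can be set beside the fold changes. Of the 9 genes that were lower without overlap, 8 had a promoter in the table, and 0 of the 8 held CACGTG. Over all genes the share with CACGTG was 8.09%, and a count from 8 genes cannot be told apart from it. CACGTG was present in 1 of the 3 genes that were higher without overlap, Lgmn, and in 9 of the 21 genes with overlap. For Lgmn the match was not in every promoter listed. Median log2 fold changes were -0.16 for the 3 genes with TCACGTGA and -0.21 for the 29 other genes with a promoter. The motif groups are small and these are descriptions.

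Other genes of the pathway, 170 in 7 lists sorted by function, gave 0 called genes of 165 tested in the edgeR quasi-likelihood fit. Without αGlu 1 the fit called 30 of the 165, or 18.2%, beside 18.6% of all genes. Median log2 fold changes below that of the 35 lysosomal genes were seen for cathepsins and cystatins, at -0.25 over 13 genes, and vacuolar ATPase subunits, at -0.23 over 19 genes. The vacuolar ATPase had 7 of these 19 subunits lower without overlap and 0 higher, against backgrounds of 15.9% and 14.2% of all genes. Other membrane proteins lay at -0.19 over 39 genes, genes that regulate TFEB and its relatives or dock mTORC1 at -0.16 over 21, and mannose 6-phosphate tagging and sorting at -0.13 over 19. Autophagy genes lay at 0.03 over 24 and other lysosomal hydrolases with their activators at 0.05 over 30, close to the median of all genes. Without overlap, these other hydrolases had 4 genes lower and 6 higher, the regulators of TFEB 3 and 4, and other membrane proteins 5 and 3. Autophagy genes had 5 lower and 2 higher, tagging and sorting 4 and 1, and cathepsins and cystatins 1 and 0. Without αGlu 1 the medians were -0.64 for cathepsins and cystatins, -0.39 for the vacuolar ATPase, -0.34 for other membrane proteins, -0.26 for the regulators of TFEB, -0.23 for tagging and sorting, -0.0038 for autophagy genes and 0.03 for other hydrolases, beside -0.36 for the 35 lysosomal genes and 0.01 for all genes.

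**Figure D5:**
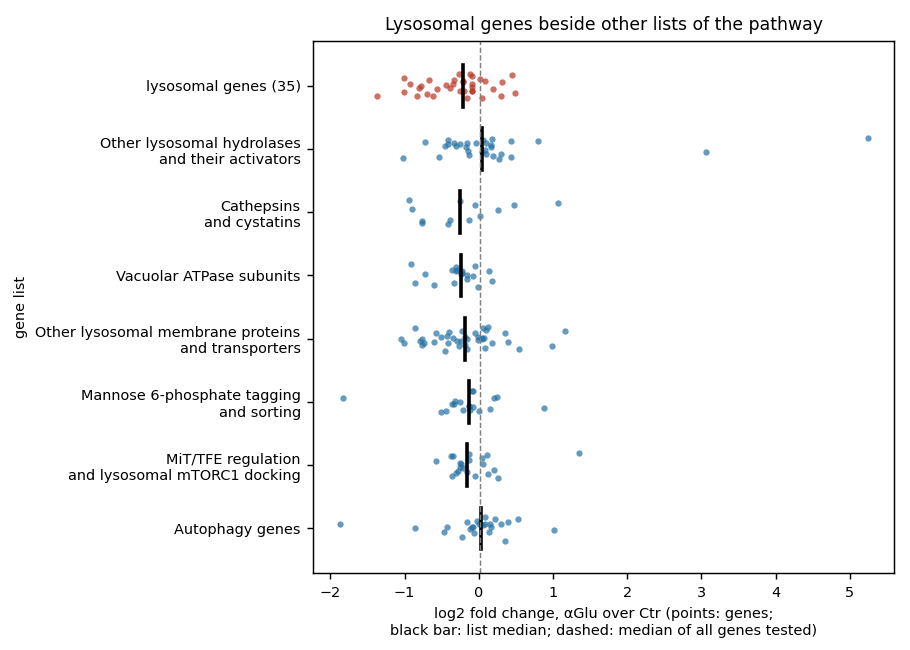
Log2 fold change of αGlu over Ctr for each gene tested (points) of the 35 lysosomal genes and of 7 other lists of the pathway, with a black bar at the list median and a dashed line at the median of all genes tested, 0.02. The medians lie between -0.25 for cathepsins and cystatins and 0.05 for other lysosomal hydrolases, and single genes lie outside -1 to 1 in 6 of the other lists.

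The extremes of each list, shown in the plot of lists, were taken where the mean log2 CPM was 3 or more. Gm2a, the activator protein that works with the Hexa product on GM2, was the lowest of the other hydrolases and activators. It had 684, 696 and 671 CPM in Ctr 1, 2 and 3, and 522, 261 and 226 CPM in αGlu 1, 2 and 3, without overlap, at a log2 fold change of -1.02 ± 0.33 (edgeR adjusted p 0.163), and -1.50 without αGlu 1. Plbd1, a phospholipase B-like protein, was the highest of that list at 3.06 ± 0.92, and 3.58 without αGlu 1, with 2.41 to 4.68 CPM in Ctr and 3.56, 44 and 47.3 CPM in αGlu 1, 2 and 3. The point further to the right in that list is Smpdl3b, a lipid-modifying phosphodiesterase, which was named after its values were seen. It had 0.669 to 1.21 CPM in Ctr, and 0.688, 60.9 and 45.5 CPM in αGlu 1, 2 and 3. Both Plbd1 and Smpdl3b lay at the Ctr level in αGlu 1.

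Sort1, a receptor that carries hydrolases from the Golgi, was the lowest of the sorting genes. It had 184, 99.1 and 98.2 CPM in Ctr 1, 2 and 3, and 87.6, 10.2 and 9.5 CPM in αGlu 1, 2 and 3. All αGlu libraries were below Ctr, at a log2 fold change of -1.84 ± 0.94 (edgeR adjusted p 0.265), and of -3.69 without αGlu 1. Among the vacuolar ATPase subunits Atp6v0d2, which leads the osteoclast list above, was the lowest at -0.91 ± 0.51, and -1.74 without αGlu 1. It had 2369, 2390 and 2451 CPM in Ctr 1, 2 and 3, and 2384, 803 and 645 CPM in αGlu 1, 2 and 3, with αGlu 1 inside the Ctr range. Atp6v0b was the highest subunit at 0.18 ± 0.14, and 0.29 without αGlu 1. Tfec, a further relative of Tfeb, was the highest of its list and went the other way from Tfeb. It had 48.6, 58.3 and 68.2 CPM in Ctr 1, 2 and 3, and 73.4, 179 and 194 CPM in αGlu 1, 2 and 3, higher without overlap at a log2 fold change of 1.35 ± 0.38 (edgeR adjusted p 0.158), and of 1.67 without αGlu 1. Tsc1, an inhibitor of mTORC1, was the lowest of that list at -0.57 ± 0.31, and -0.97 without αGlu 1, with 86.4, 82.8 and 58.8 CPM in Ctr 1, 2 and 3 and 75.9, 40.4 and 37.4 CPM in αGlu 1, 2 and 3.

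In the remaining lists, the channels Mcoln2 and Tpcn1 marked the ends of the membrane proteins, at 1.16 ± 0.31 and -1.04 ± 0.51, and at 1.44 and -1.86 without αGlu 1. Mcoln2 lay above Ctr without overlap, where its relative Mcoln1 overlapped with Ctr. Tpcn1 had 81.3, 69.8 and 59.3 CPM in Ctr 1, 2 and 3, and 63.8, 18.1 and 20.6 CPM in αGlu 1, 2 and 3, with αGlu 1 inside the Ctr range. The cathepsins ran from Ctsk, at -0.94 ± 0.34 (-0.87 without αGlu 1), to Ctsc, which activates granule proteases, at 1.06 ± 0.35 (1.35 without αGlu 1). Ap1b1, an adaptor subunit for Golgi transport, was the highest sorting gene at 0.88 ± 0.30 (1.13 without αGlu 1). The autophagy genes ran from Gabarapl1, at -0.86 ± 0.33 (-1.35 without αGlu 1), to Uvrag, at 1.02 ± 0.28 (1.27 without αGlu 1). With edgeR's adjusted p between 0.156 and 0.423, 0 of the 14 genes at the ends of the lists passed in the fit with all 6 libraries. Without αGlu 1, Ctsk had an edgeR adjusted p of 0.111, and that of the other 13 was at most 0.0396. These genes were picked by their fold changes in the same data, so small values follow in part from that choice. In that fit 49.1% of all genes had an adjusted p under 0.1.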

How the data were processed

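Messenger RNA of M2 Mφs was measured in 3 Ctr and 3 αGlu libraries, grouped by the labels. The authors used the QIAGEN RNA-seq Analysis Portal to annotate the reads, and deposited a single table. Its counts are whole exon reads per gene that were deposited unnormalized. RPKM values, deposited beside them, correct the reads for gene length and library depth. TPM values, also deposited, have an equal sum in all libraries. A deposited CPM column, a signal scaled by the authors to an effective library size, is empty for 10708 genes and was not used. GRCm38 is the build named in the submitters' processing notes. The aligner, the annotation release and how multi-mapping reads were treated are not given in the sources used here. All 24 value columns matched a library, and 1 row without a gene name was left out of all fits.

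All tests used the counts. After TMM scaling and a low-count filter in edgeR 4.0.16 (filterByExpr with at least 10 reads, and 15 in total), a quasi-likelihood model of the group alone was fitted in R 4.3.3, with two-sided tests and Benjamini-Hochberg adjustment over all genes tested. Calls needed an adjusted p under 0.1 together with an absolute log2 fold change above 1. SEs follow from each log2 fold change and F value, and log2 CPM values had a prior count of 2. Levels were compared between genes only in TPM. Libraries held 17912831 to 30386653 reads, and the lysosomal genes 379 or more in each. For genes with few reads and close replicates, such as Manba, Arsa and Smpd1, counting error is not small beside the spread between libraries. The p-values measure the spread between these libraries, counting error included, and no other source of error. Nothing in the labels says whether the replicates came from separate animals. Gene coordinates came from GENCODE M21 and promoters from RefSeq.

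The 35 genes and the other lists, which were written from general knowledge, were chosen with earlier results of these data known. Values in every library were printed for genes without overlap between groups, the 5 most abundant, the regulators Tfeb, Tfe3 and Mcoln1, and genes passing in an alternative, and the highest and lowest gene of each other list was named. Among the 170 list genes, 1 was matched by an older symbol. Alternatives were DESeq2 1.42.0, limma-voom (limma 3.58.1), a likelihood-ratio test, other scalings, filters and thresholds, a replicate block, and each library left out in turn. The fits were tried on simulated data in which no library stood apart from its group as αGlu 1 did.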

Additional observations from a re-analysis of the deposited data

How the results depend on the processing

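The number of calls depended on αGlu 1, and the cause was not tested. Leaving out each library in turn gave 0 to 2290 genes called over all genes. Of the 35 lysosomal genes 0 to 9 were called, and of the other lists 0 to 30. The highest values were those without αGlu 1, at 18.6% of all genes, 25.7% of the lysosomal genes and 18.2% of the other lists. Across these fits, the lysosomal genes lower without overlap numbered 9 to 25 and those higher 3 to 5. Over all genes, 15.9% were lower and 14.2% higher without overlap in all 6 libraries, and 31.9% and 34.1% without αGlu 1. The median log2 fold change of the lysosomal genes was -0.36 to -0.15. Over all genes DESeq2 called 1117 (8.13%) and the likelihood-ratio test 899 (7.53%), and each called 8 genes of the other lists (4.79% and 4.85%). Without a fold limit, DESeq2 called 2173 genes (15.8%), 5 of the lysosomal genes (14.3%) and 24 of the other lists (14.4%), and the fit without αGlu 1 called 6055 (49.1%), 25 (71.4%) and 106 (64.2%). Limma-voom called 0, with 3101 genes at an unadjusted p under 0.05, against 2943 for the quasi-likelihood test. Signs reversed for Gaa without αGlu 1 (-0.10), for Arsa without Ctr 2 (-0.0030) and without αGlu 3 (-0.0090), and for Npc2 without Ctr 2 (0.023) and without αGlu 3 (0.035), with ranges over the libraries left out of -0.10 to 0.16, -0.0090 to 0.044 and -0.25 to 0.035, and 32 lysosomal genes kept their sign under all alternatives run. With library size alone, the median log2 fold change was 0.10 over all genes and -0.13 over the lysosomal genes.

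The groups share replicate numbers, but their deviations from the group means correlated at only 0.08, 0.06 and 0.15 between same-numbered libraries, so the numbers were not taken as pairs, although every library correlated best with its own number. With the replicate number as a block, 17 genes were called, 0 of them lysosomal and 0 in the other lists.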
